A study of Danio rerio and Aquarana catesbeiana with 12 samples.

Results

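Nuclear receptors are transcription factors that are switched by small fat-soluble ligands. The members described here, without the thyroid hormone receptors, are part of those of zebrafish. They were taken by gene symbol, covering the retinoic acid, retinoid X, PPAR, steroid, estrogen-related and HNF4 receptors and the genes named nr with a number, without the clock receptors nr1d and the photoreceptor gene nr2e3. Receptor genes under other symbols, such as those of the vitamin D receptors, were not taken. The rule gave 48 genes, each with 1 transcript record, among 18315 records. RNA was sequenced from dissected retinal pigment epithelium (RPE), the pigmented layer behind the photoreceptors, of zebrafish treated for 3 weeks with thyroid hormone (3 libraries) or with a vehicle control (3 libraries). The form and dose of the hormone and the strain and age of the fish are not given in the labels, nor whether the 3 libraries of a group came from separate fish, so p-values here describe only how far these libraries scatter, which may be technical. The bullfrog samples of the series carry no gene names in their table and were not used.

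Thyroid hormone itself acts through nuclear receptors, which bind DNA mostly as heterodimers with a retinoid X receptor (RXR). The same RXR proteins also partner the receptors for retinoic acid, fatty acids, oxysterols, bile acids and xenobiotics. Steroid receptors and most orphan receptors bind DNA as homodimers or monomers instead. In the RPE, which handles vitamin A and the lipids of shed photoreceptor tips, retinoid and lipid receptors are of particular interest.

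Total counts per library ran from 6647597 (hormone replicate 1) to 12530697. A count of 3 equals 0.239 to 0.451 CPM (counts scaled to a fixed total in each library) before TMM scaling, and the lowest count of any member in any library was 6. Means below carry ± the SD of the 3 libraries of a group. The dissected tissue held RNA of neighbouring cells. Summed levels of 16 measured RPE markers were 23226 to 61994 CPM with hormone and 20201 to 21456 with vehicle, and those of 11 rod markers were 42142 to 51924 against 60637 to 73016. Neither pair of ranges overlaps, so the summed RPE level was higher and the summed rod level lower in every hormone library, while the mean log2 CPM over each list overlapped between groups. The retinoid isomerase gene rpe65a, at 12453 to 32335 CPM with hormone and 6688 to 7480 with vehicle, set the separation of the RPE sums. Without it they were 10773, 29659 and 25692 CPM in hormone replicates 1, 2 and 3 and 12989 to 14768 with vehicle. Hormone replicate 1 was then below every vehicle library and hormone replicates 2 and 3 above them all. Of the 16 RPE markers 14 had positive log2 fold changes (median 0.59), beside 51.7% of all records. DESeq2 called 1 of the 16, rpe65a, higher, as it did 0.907% of all records. Of the rod sums, the rhodopsin gene rho alone held 25012 to 37553 CPM with hormone and 38093 to 52765 with vehicle. Without rho the rod sums overlapped only through hormone replicate 1, which lay just above vehicle replicate 3. Of the 11 rod markers 4 had positive and 7 negative log2 fold changes (median -0.06). DESeq2 called 1 of them, pde6g, lower, as it did 0.688% of all records. It stood at 3458 to 4520 CPM with hormone and 7763 to 8873 with vehicle (DESeq2 adjusted p = 5.14e-08), and has the mark in the authors' deposited table. Of 14 cone, 21 inner retina, 7 red cell, 10 macrophage, 10 endothelial, 9 muscle, 4 iridophore and 4 sclera markers fixed as lists, 13, 21, 7, 8, 8, 5, 3 and 3 were measured, the summed levels of the groups overlapped in each list, and no measured marker was at 0 in any library. All 7 red cell markers (median log2 fold change -1.39) and all 8 macrophage markers (median -0.42) had negative log2 fold changes. DESeq2 called 2 red cell and 0 macrophage markers, beside 1.6% of all records, and the main test 0 of either. At an unadjusted p under 0.05 in the main test were 3 RPE, 1 rod, 4 red cell, 2 macrophage and 4 cone markers, beside 6.88% of records. The RPE ones were rpe65a, rlbp1b and rgra, all higher, and the rod one was pde6g, lower. The cone ones were opn1mw3, opn1mw4 and opn1lw1, higher, and opn1mw1, lower. Of the 13 cone markers, 8 had positive and 5 negative log2 fold changes. DESeq2 called 2, opn1mw3 and opn1mw4, both higher. All 5 muscle markers (median 0.52) and all 3 iridophore markers (median 0.27) had positive values. The part of these differences in the results below was not tested, and in such bulk samples fewer cells of a type and less RNA per cell cannot be told apart.

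Per length of transcript, the receptor genes covered a wide range of levels. The estrogen-related receptor gene esrrd stood highest, at 192 CPM per kilobase (mean of 6 libraries, SD 53.1), and the estrogen receptor gene esr1 lowest, at 0.393 (SD 0.168). The 10 highest members held 62.8% of the summed level of all 48, and 17 members stood under 5 CPM per kilobase. The progesterone receptor gene pgr was second, at 72.0 (SD 3.63), and the lowest library of esrrd and of pgr lay above the highest of the next gene. Below them, the ranges of neighbours in the order overlapped, although nr2f6a, the 31st, was above rarga within each of the 6 libraries. The next were rxrba (54.2), hnf4a (50.9), nr5a1a (46.2), the mineralocorticoid receptor gene nr3c2 (42.7), nr2f6b (32.9), pparaa (30.6), the glucocorticoid receptor gene nr3c1 (28.8) and esrra (23.9), all in CPM per kilobase. The records of esrrd, esrrb, pparda and nr0b2a are predicted transcripts, and that of esrrb is a partial one of 677 bases. The levels per length of these 4 genes depend on the recorded lengths.

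**Figure D1:**
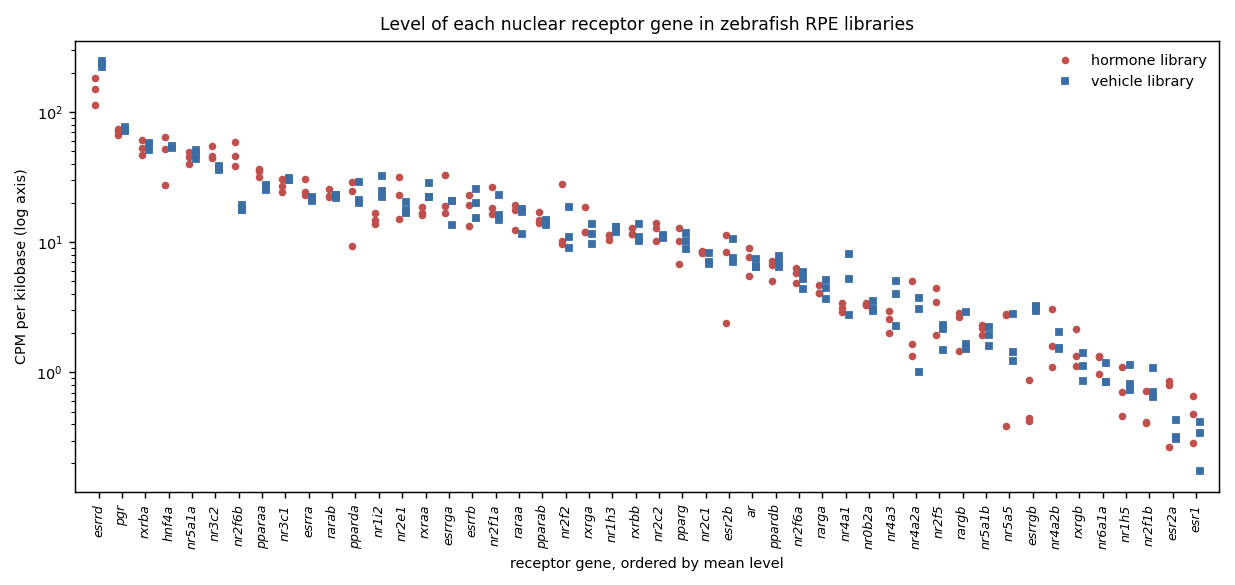
Level of each of the 48 receptor genes in every library, in CPM per kilobase of transcript on a log axis, ordered by the mean over 6 libraries, with hormone libraries as circles and vehicle libraries as squares. The gene esrrd stands apart at the top, with a mean of 192, and neighbours in the order below pgr overlap.

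With hormone, a few members stood apart from the vehicle libraries while most did not. The orphan receptor gene nr2f6b stood 2.62-fold higher, and the estrogen-related receptor gene esrrgb 5.45-fold lower. The xenobiotic receptor gene nr1i2 was 1.74-fold lower and esrrd 1.58-fold lower. The main test, edgeR's quasi-likelihood fit, called 0 of the 48 members at an adjusted p under 0.05, where it called 1 of all 18315 records (0.00546%). DESeq2 called 3 members where it called 1.6% of all records: nr2f6b, higher with hormone (0.907% of records), and esrrgb and nr1i2, lower (0.688%). The exact test of edgeR, which called 1.15% of records, had nr2f6b among the higher calls (0.644%) and esrrgb among the lower (0.502%). The mark in the authors' deposited table, on 0.934% of records, stood at the same 2 members, higher (0.524%) and lower (0.41%). Without hormone replicate 1 the main test called these 2 as well, and 0.573% of records, 0.431% higher and 0.142% lower. In the main test 7 members (14.6%) had an unadjusted p under 0.05, beside 6.88% of all records, 3 higher (3.7% of records) and 4 lower (3.18%). Hormone and vehicle libraries did not overlap in 9 members (18.8%), beside 13.3% of all records, with hormone above in 4 (6.86%) and below in 5 (6.4%). Estimates of 0.5 or more in size on the log2 scale were seen in 10 members (20.8%), beside 16.3% of records, 4 higher (7.94%) and 6 lower (8.32%). Positive values made up 28 of the 48, beside 51.7% of records. The members' median log2 fold change was 0.08, against 0.01 for all records, and their median size 0.18 against 0.19. The members were more abundant, at a median log2 CPM of 4.39 against 3.55, with a smaller median SE, 0.237 against 0.264. The part of this in the shares above was not tested.

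**Figure D2:**
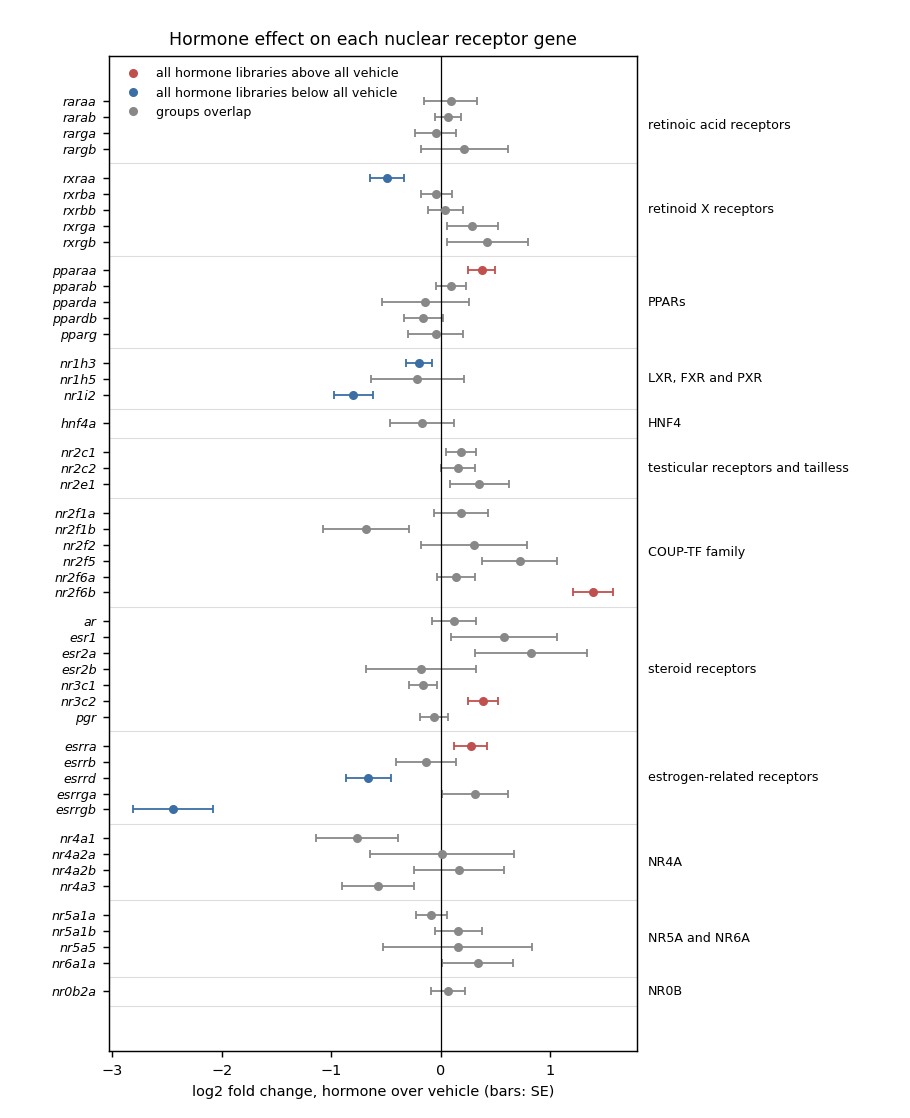
Log2 fold change of hormone over vehicle for each of the 48 genes, grouped by subfamily, with bars of 1 standard error from the edgeR fit. Coloured points are the 9 genes whose libraries did not overlap, with nr2f6b farthest to the right at 1.39 and esrrgb farthest to the left at -2.45.

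Among the retinoid receptors, the retinoic acid receptor genes, whose products bind all-trans retinoic acid, did not separate the groups. Of these rarab was the most abundant, at 63.6, 62.7 and 71.7 CPM with hormone and 64.0, 64.9 and 60.8 with vehicle. These ranges overlap, and the log2 fold change was 0.06 (SE 0.12). For raraa, rarga and rargb it was 0.09, -0.05 and 0.21, with SEs of 0.24, 0.19 and 0.40, and their groups overlapped too. The common partner rxrba stood at 117, 152 and 133 CPM with hormone and at 144, 129 and 141 with vehicle, again overlapping (log2 fold change -0.04, SE 0.14). Its sign turned without hormone replicate 1 (0.05).

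One of the RXR genes, rxraa, stood lower in every hormone library. It was at 23.0, 25.8 and 22.3 CPM with hormone and at 30.5, 30.6 and 39.1 with vehicle, a mean of 23.7 ± 1.82 against 33.4 ± 4.95 CPM. The log2 fold change was -0.49 (SE 0.15), with an edgeR adjusted p of 0.552 and an unadjusted p of 0.0159. The other RXR genes rxrbb, rxrga and rxrgb had log2 fold changes of 0.04, 0.29 and 0.43 with overlapping groups. The level per kilobase summed over all 5 RXR genes was 98.4 ± 10.8 with hormone and 103.7 ± 8.34 with vehicle, and these sums overlapped.

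Of the PPAR genes, whose products sense fatty acids, pparaa was the most abundant. In mammals its counterpart turns on fatty acid oxidation. It stood at 135, 131 and 117 CPM with hormone and at 93.6, 99.2 and 102.6 with vehicle, above in all hormone libraries. The difference was small, 1.3-fold (log2 fold change 0.37, SE 0.12), and did not pass (edgeR adjusted p = 0.587; DESeq2 adjusted p = 0.0816). Its duplicate pparab stood at 21.1 ± 2.14 against 19.7 ± 0.866 CPM, and pparda, ppardb and pparg had log2 fold changes of -0.14, -0.16 and -0.05, all with overlapping groups.

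The receptor gene nr1i2, whose product PXR senses xenobiotics and bile acids, was lower with hormone. It stood at 41.5, 34.3 and 36.7 CPM with hormone and at 54.9, 61.0 and 79.9 with vehicle, and the highest hormone library was below the lowest vehicle library by a factor of 1.32. The log2 fold change was -0.80 (SE 0.18), which passed DESeq2 (adjusted p = 0.0172) but not the main test (edgeR adjusted p = 0.311). In refits on 5 libraries the DESeq2 call held only without hormone replicate 1, and the others gave DESeq2 adjusted p of 0.099 to 0.485. The refit without that library called 730 of all 18315 records, and the others called 99 to 170. The oxysterol receptor gene nr1h3 (LXR) also lay lower in every hormone library, at 36.7, 40.2 and 40.2 against 46.3, 41.8 and 46.2 CPM. The nearest libraries of the groups differed by a factor of only 1.04 (log2 fold change -0.20, SE 0.12). The third member of this branch, the fish bile acid receptor relative nr1h5, stood at 0.801 to 1.98 CPM, with overlapping groups. The groups overlapped for hnf4a, best known from liver and gut. It ranged from 72.7 to 74.6 CPM with vehicle and was 37.4, 88.1 and 70.5 with hormone, hormone replicate 1 being the low one.

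The COUP-TF genes are orphan receptors that mostly repress transcription, and nr2f6b was the member with the smallest p of all 48. It stood at 139, 90.4 and 108 CPM with hormone and at 41.6, 45.5 and 41.6 with vehicle. Every hormone library was at least 1.99 times the highest vehicle library. Group means were 112.5 ± 24.4 and 42.9 ± 2.22 CPM, with a log2 fold change of 1.39 (SE 0.18), an edgeR adjusted p of 0.114 and a DESeq2 adjusted p of 2.3e-08. In refits that each drop 1 library the estimate lay between 1.21 and 1.52. There the edgeR test passed only without hormone replicate 1 (adjusted p = 0.0269), the shallowest library and the one with the highest nr2f6b level, and ranged up to 0.533 otherwise. Its duplicate nr2f6a did not follow, at 14.4, 17.2 and 18.9 CPM with hormone and 13.1, 15.5 and 17.4 with vehicle (log2 fold change 0.14, SE 0.18). The ratio of nr2f6b to nr2f6a was higher in each hormone library than in any vehicle library, with a mean log2 ratio of 2.69 ± 0.47 against 1.46 ± 0.21.

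Values of the other COUP-TF genes overlapped between groups. The gene nr2f5, found in fish, stood at 10.8, 6.03 and 13.7 CPM with hormone and at 4.60, 7.22 and 6.70 with vehicle, a log2 fold change of 0.72 (SE 0.34) that did not pass (edgeR adjusted p = 0.79). For nr2f1a and nr2f2, which pattern vessels and the retina in vertebrates, values were 0.18 (SE 0.25) and 0.30 (SE 0.48). The scarce nr2f1b, at 1.43 ± 0.495 against 2.27 ± 0.654 CPM, had a log2 fold change of -0.68 (SE 0.39). Of the related testicular receptor genes nr2c1 and nr2c2 and the tailless gene nr2e1, known from neural progenitors, nr2e1 was the most abundant per length. It stood at 41.0, 86.8 and 62.6 CPM with hormone and at 46.0, 48.0 and 55.6 with vehicle, with hormone replicate 2 high and hormone replicate 1 lowest of all.

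Steroid receptor genes were dominated by pgr and nr3c2. The progesterone receptor gene pgr stood at 211, 237 and 227 CPM with hormone and at 229, 231 and 246 with vehicle, the smallest ratio of highest to lowest library of all 48 members, 1.17. Its log2 fold change was -0.06 (SE 0.13). The mineralocorticoid receptor gene nr3c2 lay above the vehicle range in every hormone library, at 193, 157 and 163 against 129, 136 and 128 CPM. This is 1.31-fold (log2 fold change 0.38, SE 0.14), with an unadjusted p of 0.0265 and an edgeR adjusted p of 0.634. The glucocorticoid receptor gene nr3c1 stood at 68.7, 55.1 and 61.1 CPM with hormone and 68.5, 70.4 and 67.5 with vehicle (log2 fold change -0.16, SE 0.13), so the groups overlapped through hormone replicate 1. The androgen receptor gene ar stood at 39.1 ± 9.43 against 36.0 ± 2.86 CPM.

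The estrogen receptor genes were scarce apart from esr2b. Both esr1, at 1.64 ± 0.639 against 1.07 ± 0.424 CPM, and esr2a, at 0.826 to 2.67 with hormone and 0.952 to 1.35 with vehicle, rest on few reads. The gene esr2b stood at 6.54, 22.8 and 30.8 CPM with hormone and at 19.2, 20.7 and 28.6 with vehicle, with hormone replicate 1 far below the other 5 libraries. Its log2 fold change of -0.18 (SE 0.50) became 0.23 without that library.

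The estrogen-related receptors, which bind no estrogen and in mammals drive genes of mitochondrial energy metabolism, split by gene. The dominant esrrd stood at 326, 200.1 and 268 CPM with hormone and at 436, 393 and 426 with vehicle, lower in every hormone library. Group means were 265 ± 63.1 and 419 ± 22.4 CPM, for a log2 fold change of -0.66 (SE 0.21) that did not pass (edgeR adjusted p = 0.552). Among refits on 5 libraries, DESeq2 called it without hormone replicate 1 (adjusted p = 0.000241, log2 fold change -0.84). That refit called 730 of all 18315 records, where DESeq2 on 6 libraries called 292. The scarce esrrgb stood at 1.20, 0.578 and 0.618 CPM with hormone and at 4.04, 4.42 and 4.40 with vehicle. These are 9, 7 and 6 reads against 51, 49 and 44, and the lowest vehicle library was 3.37 times the highest hormone library. The log2 fold change was -2.45 (SE 0.36), with an edgeR adjusted p of 0.142 and a DESeq2 adjusted p of 1.25e-05. Dropping 1 library at a time gave -2.82 to -2.25, and the edgeR test passed only without hormone replicate 1 (adjusted p = 0.0357). DESeq2 gave esrrgb no adjusted p without hormone replicate 1, so it is not among its calls there. It called esrrgb in the other 5 refits, which called 99 to 170 of all records.

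The remaining genes of that family had smaller differences. The duplicate esrrga stood at 42.8, 22.0 and 25.0 CPM with hormone and at 27.2, 27.1 and 17.8 with vehicle, overlapping (log2 fold change 0.31, SE 0.30). The gene esrra stood at 40.4, 32.0 and 30.3 against 28.6, 29.2 and 27.1 CPM, above in every hormone library with nearest libraries 1.04-fold apart, and esrrb had a log2 fold change of -0.14 (SE 0.27). Summed per kilobase over the 5 genes, the family stood at 271, 168 and 213 with hormone and at 311, 293 and 293 with vehicle, a sum that esrrd makes up for the most part.

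**Figure D3:**
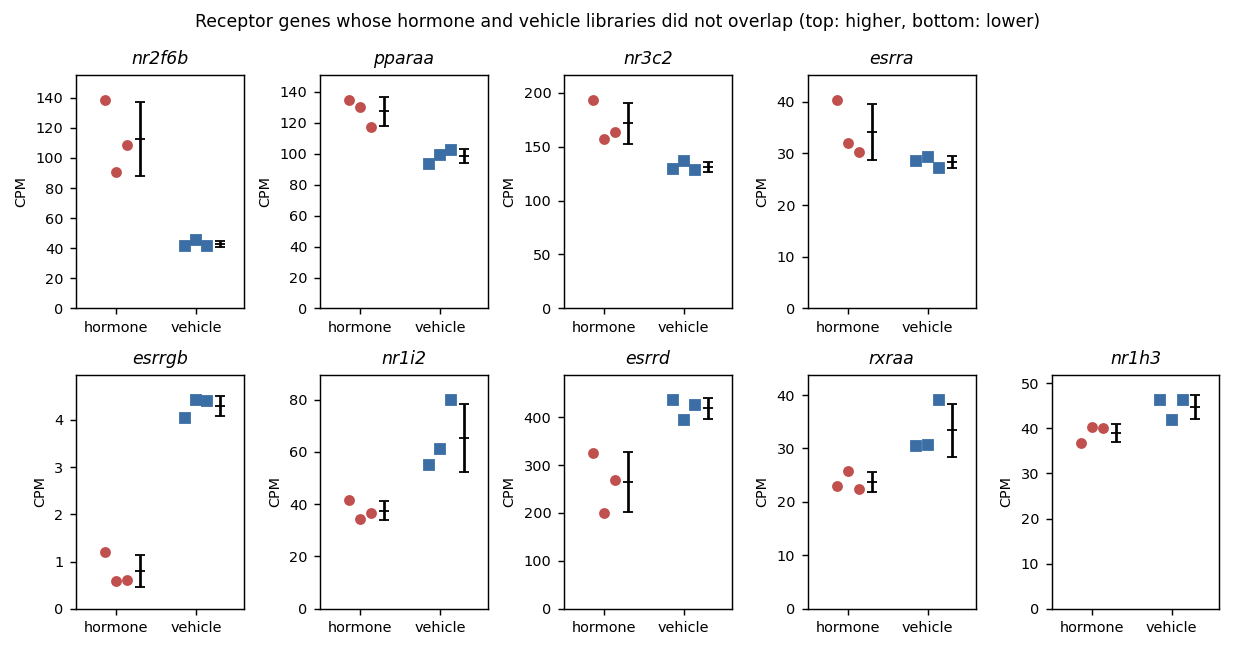
CPM in each library of the 9 genes whose hormone and vehicle libraries did not overlap, with the mean and SD of 3 libraries beside the points and each axis starting at 0. The top row holds the genes that stood higher with hormone, led by nr2f6b at 112.5 against 42.9, and the bottom row those that stood lower, led by esrrgb at 0.799 against 4.29.

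The NR4A genes are induced within minutes to hours by many stimuli and need no ligand. Of these nr4a1 stood at 9.21, 10.1 and 8.55 CPM with hormone and at 8.17, 15.5 and 23.8 with vehicle, with vehicle replicate 3 high. The log2 fold change was -0.77 (SE 0.37, edgeR adjusted p = 0.795), and that of nr4a3 was -0.58 (SE 0.33), both with overlapping groups. For nr4a2a and nr4a2b it was 0.01 (SE 0.66) and 0.16 (SE 0.41).

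Of the NR5A genes, known from steroid-producing organs, nr5a1a was the fifth most abundant member per length. It stood at 100.2, 124 and 115 CPM with hormone and at 111, 120 and 129 with vehicle, overlapping (log2 fold change -0.09, SE 0.14). Its duplicate nr5a1b stood at 5.47 ± 0.482 against 4.90 ± 0.792 CPM. The relative nr6a1a stood at 2.05 ± 0.348 against 1.62 ± 0.326 CPM. The gene nr0b2a, a receptor that lacks a DNA-binding domain and represses other receptors, was among the steadiest, at 10.3, 10.7 and 10.4 against 9.28, 11.1 and 9.70 CPM.

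Zebrafish keep many receptor genes as duplicates, and 13 pairs had symbols that differ only in a last a or b (12 such duplicates, and esrra with esrrb, which are distinct types). One copy was at least 4 times as abundant per length as the other in 7 of the 13. The largest imbalance was nr2f1a over nr2f1b, 29.0-fold, followed by nr5a1a over nr5a1b, 22.7-fold, and esr2b over esr2a, 15.9-fold. With hormone, the ratio within a pair lay outside the vehicle range in 4 pairs. How often this occurs among other gene pairs was not counted, so the number has no share to stand beside. Of the genes in these pairs, esrrgb, nr2f6b and pparaa had groups that did not overlap on their own. For esrrgb over esrrga the mean log2 ratio was -4.52 ± 0.14 with hormone and -2.33 ± 0.38 with vehicle, a difference of -2.19, and for nr2f6b over nr2f6a the difference was 1.23. For nr2f1b over nr2f1a it was -0.70, and for pparab over pparaa -0.28. Each of the 4 had a two-sided exact permutation p of 0.1, the smallest that 3 against 3 libraries allow, and 0.325 when adjusted over the 13 pairs. Any pair whose ratios do not overlap between groups gets this p of 0.1, so it adds no support to the 4 picked that way. No source used here states how reads matching both copies of a pair were counted, so levels of close copies are uncertain.

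**Figure D4:**
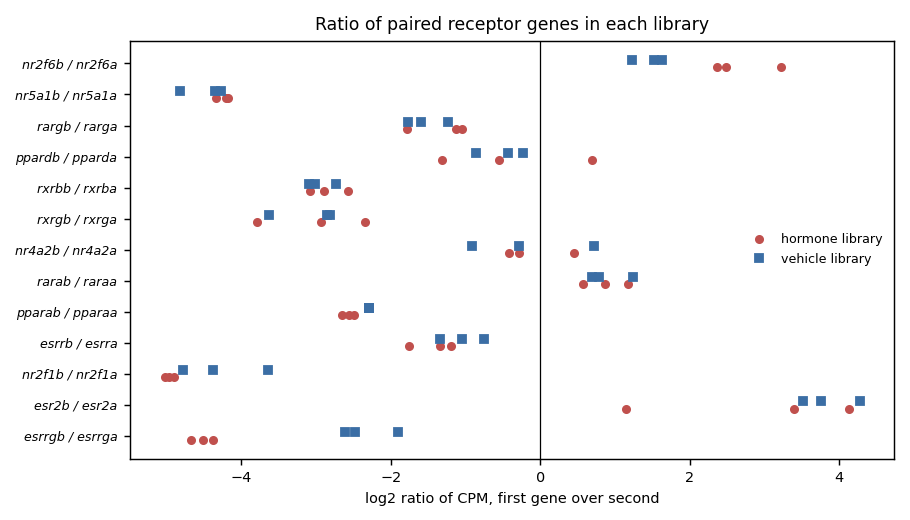
Log2 ratio of the CPM of the paired genes in each library, hormone libraries as circles and vehicle libraries as squares, with pairs ordered by the difference between groups. The pair esrrgb and esrrga is lower with hormone by 2.19 and the pair nr2f6b and nr2f6a higher by 1.23.

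Several members varied more between libraries of 1 group than between the groups. A score for inner retina, averaging log2 CPM over 21 markers of its neurons and Muller glia, was 5.29, 4.15 and 4.26 in hormone replicates 1, 2 and 3 and 5.06, 4.87 and 4.05 in the vehicle replicates. Not all of its genes followed it. Vehicle replicate 3, lowest in score, was highest in grm6b, glulb and slc1a3a. Highest elsewhere were glula (hormone replicate 3), slc6a9 (hormone replicate 2), and calb2a and calb2b (vehicle replicate 1). The other genes of the list stood highest in hormone replicate 1. The gene nr4a2a stood at 9.07, 2.39 and 2.99 CPM with hormone and at 6.74, 5.50 and 1.80 with vehicle, the same order of all 6 libraries as that score. The gene esrrga had that order too, and rargb the opposite one. These orders were looked for after the values were seen, and 2.94% of all records had the same order and 0.972% the opposite one. The gene nr5a5, a fish relative of nr5a1, was at 0.801 CPM in hormone replicate 1, 3.01 and 2.53 in vehicle replicates 1 and 2 and 5.70 to 5.87 in the other 3 libraries. Likewise pparda stood lowest in hormone replicate 1, at 13.2 CPM, and at 28.1 to 41.0 elsewhere. The gene nr2f2 stood highest there, at 108 CPM, then 72.3 in vehicle replicate 2 and 34.8 to 42.7 elsewhere. The 8 measured endothelial markers summed to 147 CPM in hormone replicate 1 and to 34.8 to 63.0 in the other libraries, with 50.9 in vehicle replicate 2. The list did not move as a set. Its genes kdr, vwf, cdh5, kdrl and plvapb stood highest in hormone replicate 1, while tie1, tek and fli1a each stood highest in a vehicle library. The relation of these markers to nr2f2 was not tested.

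**Figure D5:**
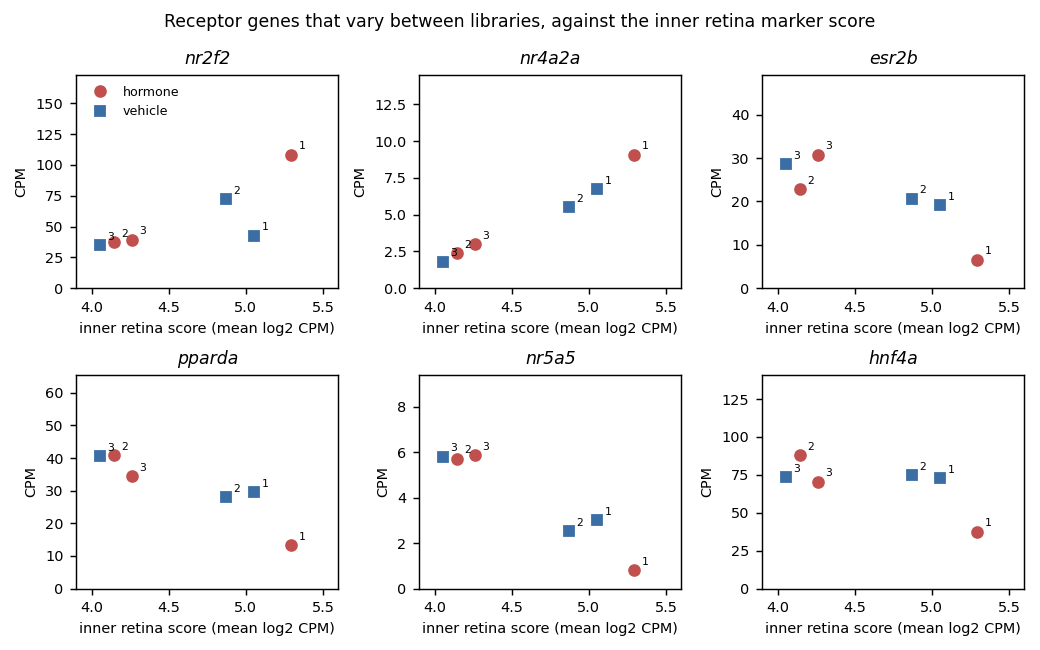
CPM of 6 receptor genes in each library against the inner retina score, hormone libraries as circles and vehicle libraries as squares, numbered by replicate. The genes nr2f2 and nr4a2a are highest and esr2b, pparda, nr5a5 and hnf4a lowest in hormone replicate 1, whose score of 5.29 is the highest.

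When that inner retina score was added to the model, nr2f6b (edgeR adjusted p = 0.00526, log2 fold change 1.40) and esrrgb (0.0195, -2.44) passed the quasi-likelihood test, and 2.4% of all records did (1.22% higher, 1.18% lower). Neither nr1i2 (0.0507) nor esrrd (0.0885) passed it.

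Proteins that receptors recruit and genes they are known to control were read from fixed lists. Of 24 measured coregulator genes, the main test called 0, and DESeq2 called 1, higher, as it did 0.907% of all records. This was ncor1, a corepressor of unliganded receptors, at 1794 ± 55.2 against 1122 ± 50.8 CPM (log2 fold change 0.68, edgeR adjusted p = 0.412). The list's median log2 fold change was 0.03, with 14 positive and 10 negative. Of 23 PPAR target genes the main test also called 0, with 13 positive and 10 negative log2 fold changes and a median of 0.08. DESeq2 called 1 of them, fabp11b, lower, as it did 0.688% of all records. The authors' mark stood at 2, fabp11b and fabp11a, beside 0.934% of all records. The fatty acid binding protein gene fabp11b stood at 18.9, 71.9 and 74.6 CPM with hormone and at 376, 331 and 350.4 with vehicle. This is 6.37-fold lower (edgeR adjusted p = 0.228, DESeq2 adjusted p = 2.4e-05). Its duplicate fabp11a stood at 15.3, 10.2 and 46.9 CPM with hormone, hormone replicate 3 being the high one. The means were 24.1 ± 19.9 with hormone against 6.76 ± 1.78 CPM with vehicle. The gene fabp11a has the mark in the authors' deposited table. It passed neither the main test (edgeR adjusted p = 0.579) nor DESeq2 (adjusted p = 0.111).

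Of 16 glucocorticoid receptor target genes, 13 had negative log2 fold changes and 3 positive (median -0.33), the main test called 0, and DESeq2 called 2, both lower, as it did 0.688% of all records. The macrophage and red cell marker lists also had negative medians, -0.42 and -1.39, and their part in this was not tested. The called genes were hsd11b2, for the enzyme that inactivates cortisol, at 33.2, 23.9 and 22.4 against 134, 54.9 and 111 CPM (edgeR adjusted p = 0.228; DESeq2 adjusted p = 0.000131), and cebpb, for a transcription factor of stress and inflammation, at 25.1 ± 4.27 against 51.0 ± 13.9 CPM (DESeq2 adjusted p = 0.0347). Of 8 LXR target genes 7 had negative values (median -0.22), of 3 FXR and PXR target genes all 3 (median -0.16), and of 10 retinoic acid receptor target genes 3 (median 0.55), with 0 called by either test in each. Over all records the median was 0.01. Only 3 of the 11 listed FXR and PXR target genes were measured. Their log2 fold changes were -0.0024 (SE 0.29) for cyp3c1, -0.16 (SE 0.65) for abcb4 and -0.68 (SE 0.43) for cyp7a1a, all with overlapping groups. At an unadjusted p under 0.05 the main test had 1 of the coregulator, 4 of the PPAR, 3 of the glucocorticoid, 1 of the LXR, 0 of the FXR and PXR and 1 of the retinoic acid genes. These are 0% to 18.8% of the measured genes of a list, with 4.17% for the coregulators and 10% for the retinoic acid genes, beside 6.88% of all records.

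The thyroid hormone receptor genes thraa, thrab and thrb, not members here, had log2 fold changes of 0.83, 0.93 and 0.80. All 3 had no overlap between the groups, with hormone above, as in 6.86% of all records. Their edgeR adjusted p was 0.273, 0.133 and 0.259, and none passed the main test. All 3 passed DESeq2 (adjusted p = 0.00136, 5.34e-08 and 0.000173), which called 0.907% of records higher. The gene thrab has the mark in the authors' deposited table, as have 0.524% of records on the higher side.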

How the data were processed

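The authors deposited raw counts per transcript record, the length of each record in bases, their own edgeR log2 fold change (vehicle over hormone, sign turned here), p-value and mark of significance. Libraries came from total RNA with an amplification kit and shared a lane, per the labels' protocols. Bowtie 0.12.7 and edgeR are named in the submitters' processing notes, and the build and counting rules are not given in the sources used here. A nameless entry equal to the column totals in all 6 libraries was left out. All 18315 records passed filterByExpr, so no member was removed.

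Counts were tested with the quasi-likelihood test of edgeR 4.0.16 (R 4.3.3, package defaults, TMM scaling, Benjamini-Hochberg over all records at 0.05). Levels are CPM with TMM factors. The SE is the size of the log2 fold change over the square root of F. Alternatives were RLE and total count scaling, no filter, DESeq2 1.42.0, legacy, newer and robust edgeR fits, the exact test, limma 3.58.1 voom, the deposited mark, the replicate number as a block, the inner retina score as a covariate and leaving out each library. Simulated counts, run on 18315 records, held 50 changed genes at each fold size, drawn only from records with a mean above 1 CPM. There the main test recovered 4%, 70%, 96% and 100% of log2 changes of 1, 2, 3 and 5, and 9 of its 144 calls were unchanged genes. For DESeq2 the shares were 34%, 82%, 98% and 98%, and 50 of 206 calls were unchanged genes. The simulated libraries were drawn independently, without shifts shared by the genes of a library. These shares need not hold in the real counts, where the main test made 1 call.

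The members, lists and tests were chosen with earlier results of these data known. Named in full were members past the quasi-likelihood test, DESeq2 or the deposited mark; members at a mean log2 CPM of at least 1 with groups apart by 0.5 or more on the log2 scale, up to 8 a side; the 10 highest per kilobase; the highest of each subfamily; the steroid receptors; and the 5 with the widest ratio of highest to lowest library at a mean of at least 1 CPM. Of the lists, members past any of those tests were named, up to 3 a list. Other members are given by shorter values, and those set against the inner retina score were chosen after their values were seen. List genes were matched by file symbol or by the current symbol of the accession in RefSeq (GRCz12tu), which holds 46 of the 48 members, all under the same symbol.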

Additional observations from a re-analysis of the deposited data

How the results depend on the processing

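The count of members past the test was 0 in the main fit and under both other scalings, the newer and robust fits, voom and the replicate block. No filter and the legacy fit repeat the main fit here and test nothing. It was 3 with DESeq2 (2 to 3 with 1 library left out), 2 with the mark in the authors' deposited table, 2 with the exact test and 2 with inner retina scores in the model as covariate. With 1 library left out of the main fit it was 0 to 2, the 2 without hormone replicate 1. Members at an unadjusted p under 0.05 numbered 7, or 4 in the authors' deposited table, 11 with the covariate and 5 to 9 with 1 library left out. Records past the test numbered 1, or 292 with DESeq2, 171 by the authors' mark, 210 with the exact test, 440 with the covariate, 8 with total count scaling, 0 with voom, 0 with the replicate block and 0 to 105 with 1 library left out of the main fit. With 1 library left out DESeq2 called 99 to 730 records, the 730 without hormone replicate 1. In simulated counts, which held no shift shared by the genes of a library, DESeq2 called more unchanged records than the main test, 50 against 9.

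PPAR target genes past the test numbered 0, or 1 with DESeq2, 1 with the exact test, 2 by the authors' mark, 2 with the covariate and 0 to 3 with 1 library left out. For the coregulators it was 1 with DESeq2 and 1 with the exact test. For the glucocorticoid targets it was 2 with DESeq2, 2 with the exact test, 2 with the covariate and 1 by the authors' mark. With 1 library left out, median log2 fold changes ran from -0.31 to -0.071 for LXR targets, from -0.59 to -0.018 for FXR and PXR targets, from 0.015 to 0.25 for PPAR targets, from -0.48 to -0.27 for glucocorticoid targets and from 0.14 to 0.64 for retinoic acid targets.

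Of 22 named members, 15 kept their sign under all 18 alternatives, 16 of which differ from the main fit. The log2 fold change of nr4a2a turned to -0.20 with voom, -0.012 with the newer fit and -0.023 with the replicate block, and ran from -0.81 to 0.37 with 1 library left out. That of nr5a5 turned to -0.22 with the covariate, -0.00011 with voom and -0.067 with the replicate block, and ran from -0.17 to 0.62 with 1 library left out. With 1 library left out it ran from -0.44 to 0.11 for hnf4a, -0.010 to 0.10 for rarab, -0.14 to 0.047 for rxrba, -0.051 to 0.29 for ar and -0.62 to 0.23 for esr2b. The cause was not tested.

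Deviations from the group mean in libraries with the same replicate number had correlations of 0.463, -0.395 and 0.105. Between libraries with different numbers the correlations ran from -0.577 to 0.619. With only 3 libraries centred in each group, these cannot settle whether the numbers pair libraries. With the replicate block nr2f6b had an edgeR adjusted p of 0.277 and esrrgb 0.362. The newer fit and DESeq2 with libraries left out were chosen after seeing the data. With 3 libraries a group, the main test recovered 4% of log2 changes of 1 in the simulated counts, where changed genes had a mean above 1 CPM. Those counts held no shift shared by the genes of a library, and the test made 144 calls there against 1 in the real counts. The share of such differences that it would detect in the real counts is therefore not known.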
